A study of Rattus norvegicus with 9 samples.

Results

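The genes described here serve the uptake and handling of fatty acids: Fabp4, Fabp5, Cd36, Lpl and Pparg. They were taken by name from a rat spleen RNA-seq table, as the gene entries carrying these symbols. Where a symbol occurred more than once, the entry was to be chosen by its total count over the 9 libraries, the highest being kept. No symbol occurred more than once. Of the 5 names, 4 had an entry, among 34408 gene entries in all, and these 4 were among the 15954 entries that passed a filter on low counts. No entry carried the symbol Cd36. The names were selected on earlier results of these data, differences between the groups included, so the values below describe the genes and are not independent support for any pattern.

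RNA was sequenced from the spleens of wild-type rats in 9 libraries, 3 in each of 3 groups. Control rats carry no treatment in the labels. TAA rats were injected intraperitoneally with TAA (thioacetamide, a toxin that scars the rodent liver). Injections came every 3 days, the dose being 200 mg/kg during 8 weeks, followed by 8 more weeks with 100 mg/kg. TAA+celecoxib rats had the same injections and, in the last 8 weeks, celecoxib, an inhibitor of cyclooxygenase 2, at 20 mg/kg per day. The labels give no strain, age or vehicle and do not say whether each library came from a separate rat, so the spread behind each p-value is that of these libraries and may be technical.

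Fatty acids reach cells from lipoproteins or bound to albumin. Lipoprotein lipase (Lpl) releases them from triglyceride in the capillary lumen, CD36 helps to bring them across the membrane, and fatty acid binding proteins carry them inside the cell. PPAR gamma (Pparg) is a nuclear receptor that is activated by fatty acids and derivatives of them and controls genes of lipid uptake and storage, Fabp4, Cd36 and Lpl among them. Fabp4 is known from adipocytes, capillary endothelium and macrophages, and Fabp5 from epidermis, macrophages, endothelium and activated lymphocytes. In the spleen, macrophages of the red pulp take up and break down aged red cells, membrane lipids included.

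The labels name spleen as the tissue and splenocytes as the cell type. The 7 T cell markers summed to 565 to 946 CPM (counts scaled to a fixed library total, with TMM, edgeR's correction for composition). Libraries held 14211789 to 19014761 counts, so that 1 count equalled 0.0522 to 0.0710 CPM. Control 1 and TAA+celecoxib 1 stood apart from the other 7 libraries. Their 10 macrophage markers summed to 2004 to 2534 CPM against 3876 to 7183 CPM, and their 9 endothelial markers to 364 to 366 CPM against 709 to 1114 CPM. Their T cell markers summed to 911 to 946 CPM, against 565 to 840 CPM in the other 7. The mean log2 CPM of their B cell markers was 8.41 to 8.72, against 7.61 to 8.34, while the B cell sums overlapped. TAA 1 and control 1 held transcripts of hepatocytes, whose 7 markers summed to 864 and 114 CPM and to at most 0.771 CPM elsewhere. TAA 2 held transcripts of the exocrine pancreas: its 7 acinar markers summed to 92.4 CPM, against 8.51 to 24.7 CPM elsewhere. In bulk tissue, fewer cells of a type and less RNA per cell cannot be told apart.

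Fabp5 (ENSRNOG00000049075, chromosome 2, 93981656 to 93985378, minus strand, coordinates as in the files) encodes the epidermal fatty acid binding protein, an intracellular carrier. Its level was 34.2, 31.1 and 32.3 CPM in control 1, 2 and 3. In the TAA libraries it was 31.6, 66.0 and 74.1 CPM. In the TAA+celecoxib libraries it was 31.4, 25.9 and 27.7 CPM. TAA 2 and TAA 3 were thus high and the other 7 libraries, TAA 1 included, lay between 25.9 and 34.2 CPM. The TAA group overlapped the controls, while all 3 TAA+celecoxib libraries were below all 3 TAA libraries, with 31.4 CPM next to 31.6 CPM at the closest point.

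Group means of Fabp5 were 32.5 ± 1.52 CPM in control, 57.2 ± 22.5 CPM in TAA and 28.3 ± 2.81 CPM in TAA+celecoxib (SD, n = 3 each). The SD of the TAA group was thus the widest of the 3. The fitted log2 fold change was 0.82 (SE 0.27) for TAA against control, with an edgeR adjusted p = 0.788 over all tested genes. For TAA+celecoxib against TAA it was -1.01 (SE 0.27), with an edgeR adjusted p = 0.890. Neither passed the threshold of 0.05, although the unadjusted edgeR p-values were 0.0147 and 0.00477. TAA+celecoxib differed from control by -0.20 (SE 0.27, edgeR adjusted p = 0.973), with a 95% interval of -0.81 to 0.41. TAA 1 was the TAA library lowest in Fabp5, at the control level, so leaving it out favours a difference and is no support for one. Without TAA 1, the TAA+celecoxib against TAA value was -1.32 and passed (edgeR adjusted p = 0.0326), in a fit that called 3 of 16273 genes. TAA against control was then 1.11 and did not pass (edgeR adjusted p = 0.349). The comparisons share the TAA libraries, so the 2 values are not independent of each other. RefSeq lists 2 pseudogenes named after Fabp5, and reads shared with such copies cannot be told apart in these counts.

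**Figure D1:**
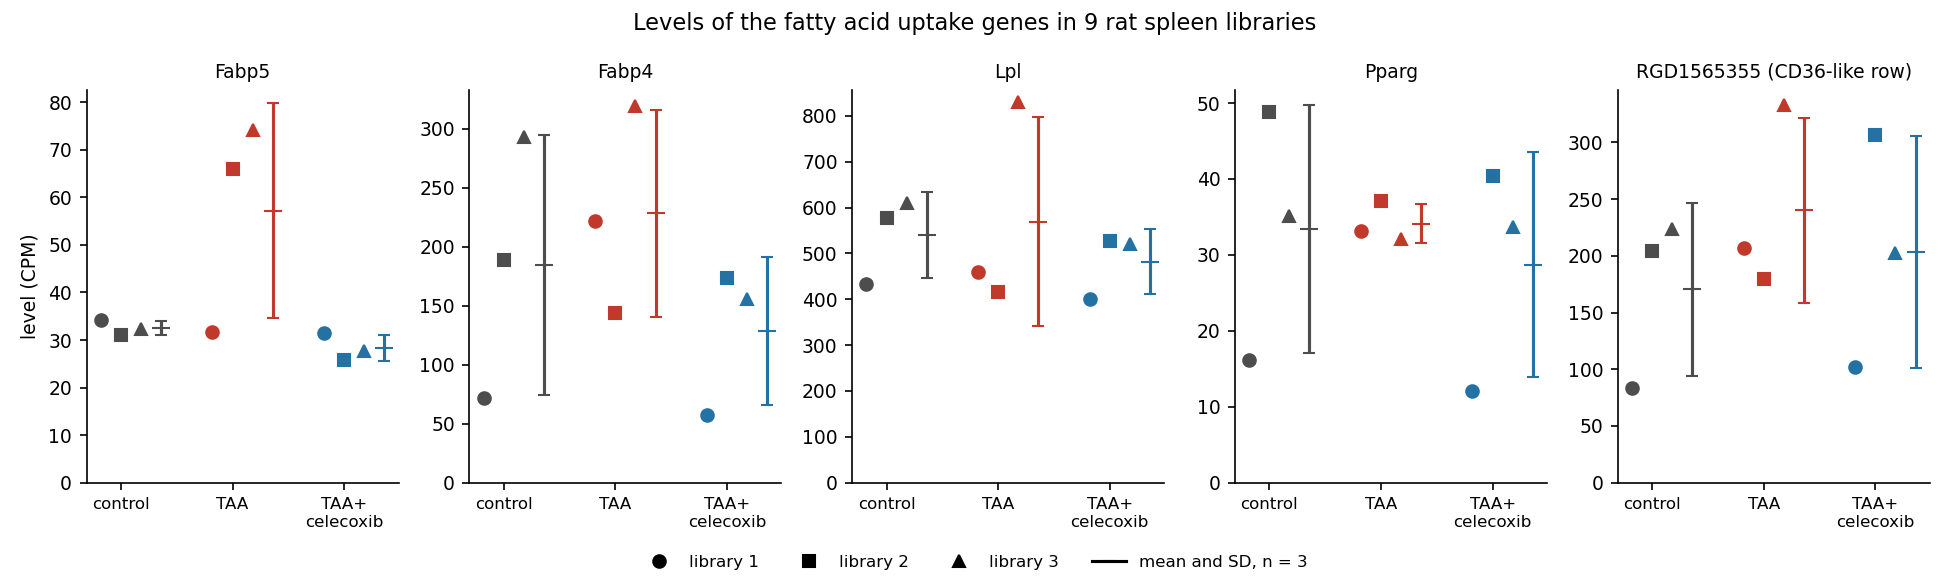
Level of each gene in CPM (linear axis from 0) in control, TAA and TAA+celecoxib spleens; symbols mark the library number and the bar to the right of each group is the mean with SD of 3 libraries. Fabp5 was at 66.0 and 74.1 CPM in TAA 2 and TAA 3 and between 25.9 and 34.2 CPM in the other 7 libraries, whereas Fabp4, Pparg and RGD1565355 were lowest in control 1 and TAA+celecoxib 1.

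Fabp4 (ENSRNOG00000010805, chromosome 2, 93792601 to 93797305, plus strand), the adipocyte fatty acid binding protein, lies near Fabp5 on the same chromosome. Its level was 71.9, 189 and 293 CPM in control 1, 2 and 3. In TAA 1, 2 and 3 the values were 222, 144 and 319 CPM. TAA+celecoxib 1, 2 and 3 had 57.3, 173 and 155 CPM. Control 1 and TAA+celecoxib 1 were the lowest, below the 144 to 319 CPM of the other 7 libraries, and all pairs of groups overlapped. Group means were 184 ± 110 CPM in control, 228 ± 87.8 CPM in TAA and 129 ± 62.5 CPM in TAA+celecoxib.

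The fitted log2 fold change of Fabp4 was 0.31 (SE 0.55, edgeR adjusted p = 0.895) for TAA against control and -0.83 (SE 0.55, edgeR adjusted p = 0.890) for TAA+celecoxib against TAA. Its 95% intervals were wide, -0.93 to 1.55 and -2.08 to 0.42. Without control 1 the first value was -0.075, and without TAA+celecoxib 1 the second was -0.47. Without TAA 3 the first value was -0.011. For TAA+celecoxib against control it was -0.52 (SE 0.55, edgeR adjusted p = 0.957), with -0.90 without control 1, -0.018 without control 3, -0.17 without TAA+celecoxib 1 and -0.79 without TAA+celecoxib 2.

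Lpl (ENSRNOG00000012181, chromosome 16, 22537056 to 22561496, minus strand) encodes the lipase that frees fatty acids from circulating triglyceride. It was at 434, 576 and 610 CPM in control 1, 2 and 3. TAA 1, 2 and 3 had 459, 416 and 831 CPM. TAA+celecoxib 1, 2 and 3 had 400, 526 and 520 CPM. TAA 3 alone was above the 400 to 610 CPM of the other 8 libraries. Group means were 540 ± 93.5, 569 ± 228 and 482 ± 71.3 CPM in control, TAA and TAA+celecoxib. Its log2 fold change was 0.08 (SE 0.27, edgeR adjusted p = 0.953) for TAA against control and -0.24 (SE 0.27, edgeR adjusted p = 0.917) for TAA+celecoxib against TAA. Without TAA 3 these values were -0.30 and 0.14, and without control 1 the first was -0.060. For TAA+celecoxib against control it was -0.16 (SE 0.27, edgeR adjusted p = 0.983), with -0.30 without control 1, -0.045 without TAA+celecoxib 1 and -0.067 without control 3.

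Pparg (ENSRNOG00000008839, chromosome 4, 147274107 to 147399380, plus strand) encodes PPAR gamma. Its level was 16.2, 48.8 and 35.2 CPM in control 1, 2 and 3. In the TAA libraries it was 33.2, 37.1 and 32.1 CPM. In the TAA+celecoxib libraries it was 12.03, 40.4 and 33.7 CPM. The TAA libraries were close to each other, and control 1 and TAA+celecoxib 1 were below the 32.1 to 48.8 CPM of the other 7 libraries. Group means were 33.4 ± 16.4, 34.1 ± 2.60 and 28.7 ± 14.8 CPM in control, TAA and TAA+celecoxib.

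The log2 fold change of Pparg was 0.03 (SE 0.46, edgeR adjusted p = 0.991) for TAA against control and -0.25 (SE 0.46, edgeR adjusted p = 0.940) for TAA+celecoxib against TAA. For TAA+celecoxib against control it was -0.22 (SE 0.46, edgeR adjusted p = 0.990). Without control 1 the first value was -0.30, without TAA 2 it was -0.033, and without TAA+celecoxib 1 the second was 0.12 and the third 0.15. The third was 0.16 without control 2. The direction of Pparg between groups thus changed with single libraries.

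RefSeq places 2 transcription starts of Pparg in its promoter table for the build GRCr8, and the deposited entry sums the reads of all Pparg transcripts, so the counts do not tell the starts apart. The 250 bases before each start are shown because they differ in composition, with 67.2% G and C before the first start and 44.8% before the second. Capitals mark matches to a GC box (GGGCGG) or a CCAAT box (CCAAT) on either strand; the first 2 GC box matches overlap.
Pparg first start, chr4:150096808-150097057, plus strand: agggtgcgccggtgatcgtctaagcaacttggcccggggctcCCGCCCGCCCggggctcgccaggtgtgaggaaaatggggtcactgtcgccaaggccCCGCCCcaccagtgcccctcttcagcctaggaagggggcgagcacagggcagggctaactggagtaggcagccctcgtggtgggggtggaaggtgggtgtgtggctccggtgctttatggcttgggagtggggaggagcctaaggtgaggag
Pparg second start, chr4:150154522-150154771, plus strand: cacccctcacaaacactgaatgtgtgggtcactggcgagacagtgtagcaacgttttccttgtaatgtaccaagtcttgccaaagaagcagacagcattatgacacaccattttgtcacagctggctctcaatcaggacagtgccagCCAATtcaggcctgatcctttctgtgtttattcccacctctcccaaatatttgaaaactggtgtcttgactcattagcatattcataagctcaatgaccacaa
The first window held 3 GC box matches, all on the minus strand, and the second held 1 CCAAT match, on the plus strand. Among 33469 windows of the same 250 bases, 30.5% held a GC box and 34% a CCAAT box. Neither Pparg window held, on either strand, the direct repeat that PPAR and RXR dimers bind (AGGTCA, any 1 base, AGGTCA) or a single AGGTCA. Of all windows 0.0508% held the repeat and 14.1% the single element. These are matches of letters, and no match says only that the letters are not in these windows. Of the 5 names, Pparg and Cd36 matched the promoter table.

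The entry nearest to Cd36 in the files is RGD1565355 (ENSRNOG00000040108, chromosome 4, 14001761 to 14249749, plus strand), described there as similar to fatty acid translocase/CD36. It overlaps 2 other entries on the same strand, AABR07059308.1 and LOC103690020, the latter described as like platelet glycoprotein 4, another name of CD36. RefSeq gives RGD1565355 as an older name of Cd36l1 and places 4 genes side by side there: Cd36, Cd36l1, LOC134486712 and Cd36-ps1. Which of them gave the reads of RGD1565355 was not tested, so its values are not given as Cd36.

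RGD1565355 was at 83.3, 204 and 224 CPM in control 1, 2 and 3. In TAA 1, 2 and 3 the values were 207, 180 and 333 CPM. TAA+celecoxib 1, 2 and 3 had 102, 306 and 202 CPM. Control 1 and TAA+celecoxib 1 were below the 180 to 333 CPM of the other 7, as for Fabp4 and Pparg. Its log2 fold change was 0.50 (SE 0.46, edgeR adjusted p = 0.817) for TAA against control and -0.24 (SE 0.46, edgeR adjusted p = 0.940) for TAA+celecoxib against TAA. LOC103690020 was also lowest in those libraries, at 4.44 and 7.15 CPM against 10.6 to 44.4 CPM, while AABR07059308.1, at 23.6 to 63.8 CPM, was not.

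Of the 4 genes with an entry, edgeR called 0 in each comparison, as it called 0% of the 15954 tested genes in TAA against control, 0% in TAA+celecoxib against TAA and 0% in TAA+celecoxib against control. At an unadjusted p under 0.05 the count was 1, 1 and 0 of 4, the 1 being Fabp5 each time, beside 6%, 5.09% and 5.03% of all tested genes. In TAA+celecoxib against control 2.96% of all genes were higher and 2.07% lower at that threshold, and 0 of the 4 were either. DESeq2 called 0 of the 4 in each comparison (smallest adjusted p = 0.139, for TAA+celecoxib against TAA), where it called 0.333%, 0.157% and 0.17% of 15903 genes, and limma-voom called 0 of the 4 and 0% of all. All 4 fitted values were above 0 in TAA against control (median 0.19, beside 0.0017 over all tested genes), where 50.2% of all tested genes were above 0. All 4 were below 0 in TAA+celecoxib against TAA (median -0.54, beside 0.0071), where 51.2% of all tested genes were above 0. All 4 were also below 0 in TAA+celecoxib against control (median -0.21, beside 0.0012), where 50.2% were above 0. The comparisons share libraries. Without control 1 and TAA+celecoxib 1, TAA against control was below 0 for Fabp4 (-0.088), Lpl (-0.073) and Pparg (-0.31), and TAA+celecoxib against TAA was above 0 for Pparg (0.12). Fabp5 in TAA+celecoxib against TAA was the 1 instance of groups that did not overlap, where 5.87% of all tested genes were higher and 5.03% lower without overlap. In TAA against control the groups overlapped for all 4, where 6.94% of all tested genes were higher and 7.89% lower without overlap. In TAA+celecoxib against control, where 5.27% of all tested genes were higher and 4.42% lower without overlap, the groups overlapped for all 4.

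**Figure D2:**
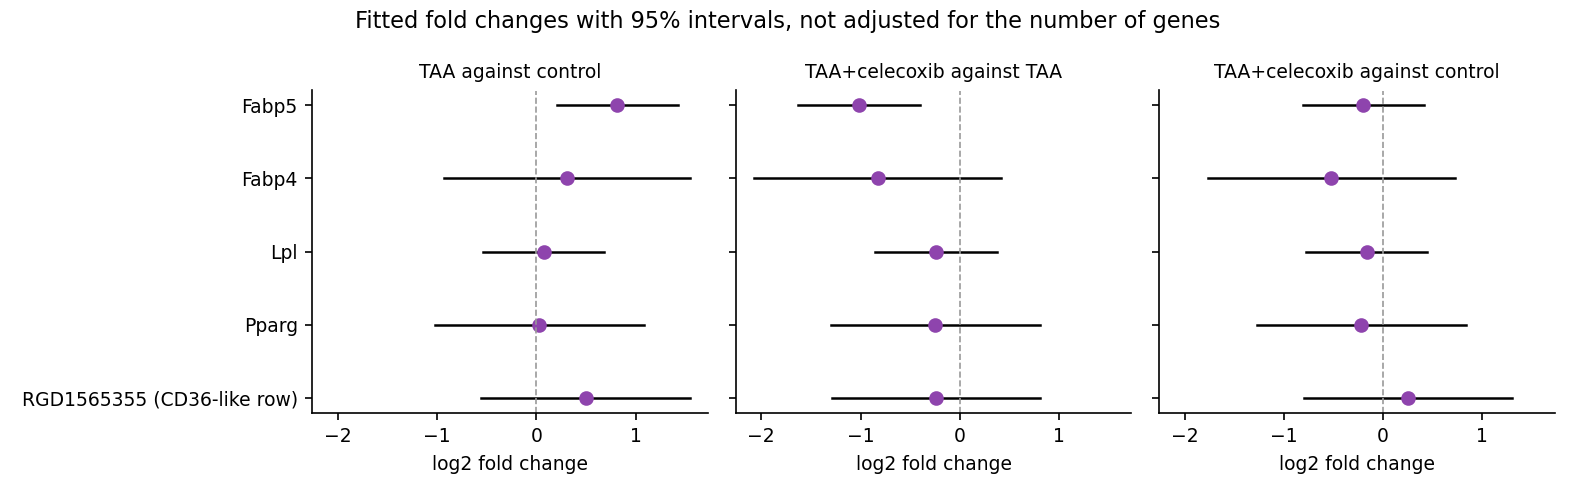
Fitted log2 fold change (dot) with its 95% interval (line, not adjusted for the number of genes) for the 4 genes and RGD1565355 in 3 comparisons, positive where the group named first is higher. The intervals of Fabp5 in both comparisons with TAA leave out 0, at 0.20 to 1.43 and -1.63 to -0.40, and all others include it. Neither of these Fabp5 comparisons passed the threshold (edgeR adjusted p = 0.788 and 0.890). The genes were selected on earlier results of these data, group differences included, so the intervals are no independent support.

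Set per gene length as the authors' FPKM (fragments scaled to gene length and library size), Fabp4 and Lpl were the most abundant of the 4. Fabp4 ranged from 83.2 to 478 FPKM over the 9 libraries with a median of 261, and Lpl from 106 to 226 FPKM with a median of 141. Fabp4 exceeded Lpl in 7 of 9 libraries, so the order of this pair did not hold beyond their spread. Fabp5 followed at 35.9 to 102 FPKM with a median of 43.2, and Pparg was lowest at 5.08 to 21.1 FPKM with a median of 14.6. Fabp4 exceeded Fabp5, Lpl exceeded Fabp5 and Fabp5 exceeded Pparg in 9 of 9 libraries. The ratio of Fabp4 to Fabp5 FPKM was 2.28, 6.57 and 9.82 in control 1, 2 and 3. TAA 1, 2 and 3 had ratios of 7.61, 2.37 and 4.67. TAA+celecoxib 1, 2 and 3 had ratios of 1.98, 7.26 and 6.07. The balance of the 2 carriers varied within each group, over ranges that overlapped.

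The rest of the fatty acid binding protein family was scarce in these spleens. Fabp3, the heart form, was the only other member to pass the filter, at 0.863 to 1.99 CPM. Fabp1, the liver form, had 124 counts in TAA 1, 4 in control 1 and 0 in the other 7, and TAA 1 and control 1 are the libraries with hepatocyte transcripts. Fabp2, Fabp6, Fabp7 and Fabp12 had at most 2 counts in any library, and Fabp9 and Pmp2 had 0 in all 9.

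Across the 9 libraries, Fabp4, Lpl and RGD1565355 varied together, whereas Fabp5 did not follow them. On log2 CPM, Pearson's r was 0.784 between Fabp4 and Lpl (Spearman's coefficient 0.883), 0.885 between Fabp4 and RGD1565355 (0.883) and 0.803 between Fabp4 and Pparg (0.300). Control 1 and TAA+celecoxib 1 were the lowest libraries for both genes of the last pair. For Fabp5, r was 0.269 with Fabp4, 0.332 with Lpl and 0.0782 with Pparg. These values describe 9 libraries of 3 groups that share depth and cell makeup within each library, and no test is attached.

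The same libraries differed in markers of the cell types in which these genes are known. Fabp4 followed the mean log2 CPM of the endothelial markers (r = 0.966, Spearman = 0.783) and of the macrophage markers (r = 0.931, Spearman = 0.750). For Pparg these were 0.812 (Spearman 0.450) and 0.851 (Spearman 0.150), and for Lpl 0.801 (Spearman 0.867) and 0.665 (Spearman 0.467). For Fabp5 they were 0.331 (Spearman 0.233) and 0.387 (Spearman 0.517). The adipocyte list had the highest r of the 14 lists for Fabp5, 0.669 (Spearman 0.567), and the acinar list, high in TAA 2, had 0.503 (Spearman -0.033). Of the 8 adipocyte markers, 1 to 5 had 0 counts in each library, and their mean log2 CPM ran from -0.877 to 0.212. The 6 markers of capillary endothelium gave r = -0.233 (Spearman -0.117) for Fabp4, -0.234 (Spearman -0.350) for Lpl, -0.541 (Spearman -0.667) for Pparg and 0.193 (Spearman 0.200) for Fabp5. Among these markers, Aqp1 was highest in TAA 1 and TAA+celecoxib 2, at 568 and 613 CPM. Those libraries were also highest in summed erythroid markers, at 3170 and 3650 CPM. Meox2, of the same list, reached at most 0.443 CPM. By group, the 10 macrophage markers summed to 2534 to 4612 CPM in control, 5144 to 7183 CPM in TAA and 2004 to 4155 CPM in TAA+celecoxib, and the endothelial markers to 366 to 983, 709 to 1114 and 364 to 762 CPM. No macrophage marker was at 0 except Marco in TAA+celecoxib 1. TAA 1, with Fabp5 at 31.6 CPM, had macrophage markers at 5144 CPM, close to the 5157 CPM of TAA 2, with Fabp5 at 66.0 CPM. Other lists also differed between control and TAA: 7 T cell markers summed to 771 to 946 CPM in control and 565 to 692 CPM in TAA, 9 neutrophil markers to 84.5 to 328 CPM and 454 to 2140 CPM, and 7 platelet markers to 154 to 218 CPM and 223 to 319 CPM. The part of cell makeup in the levels of these genes was not tested.

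**Figure D3:**
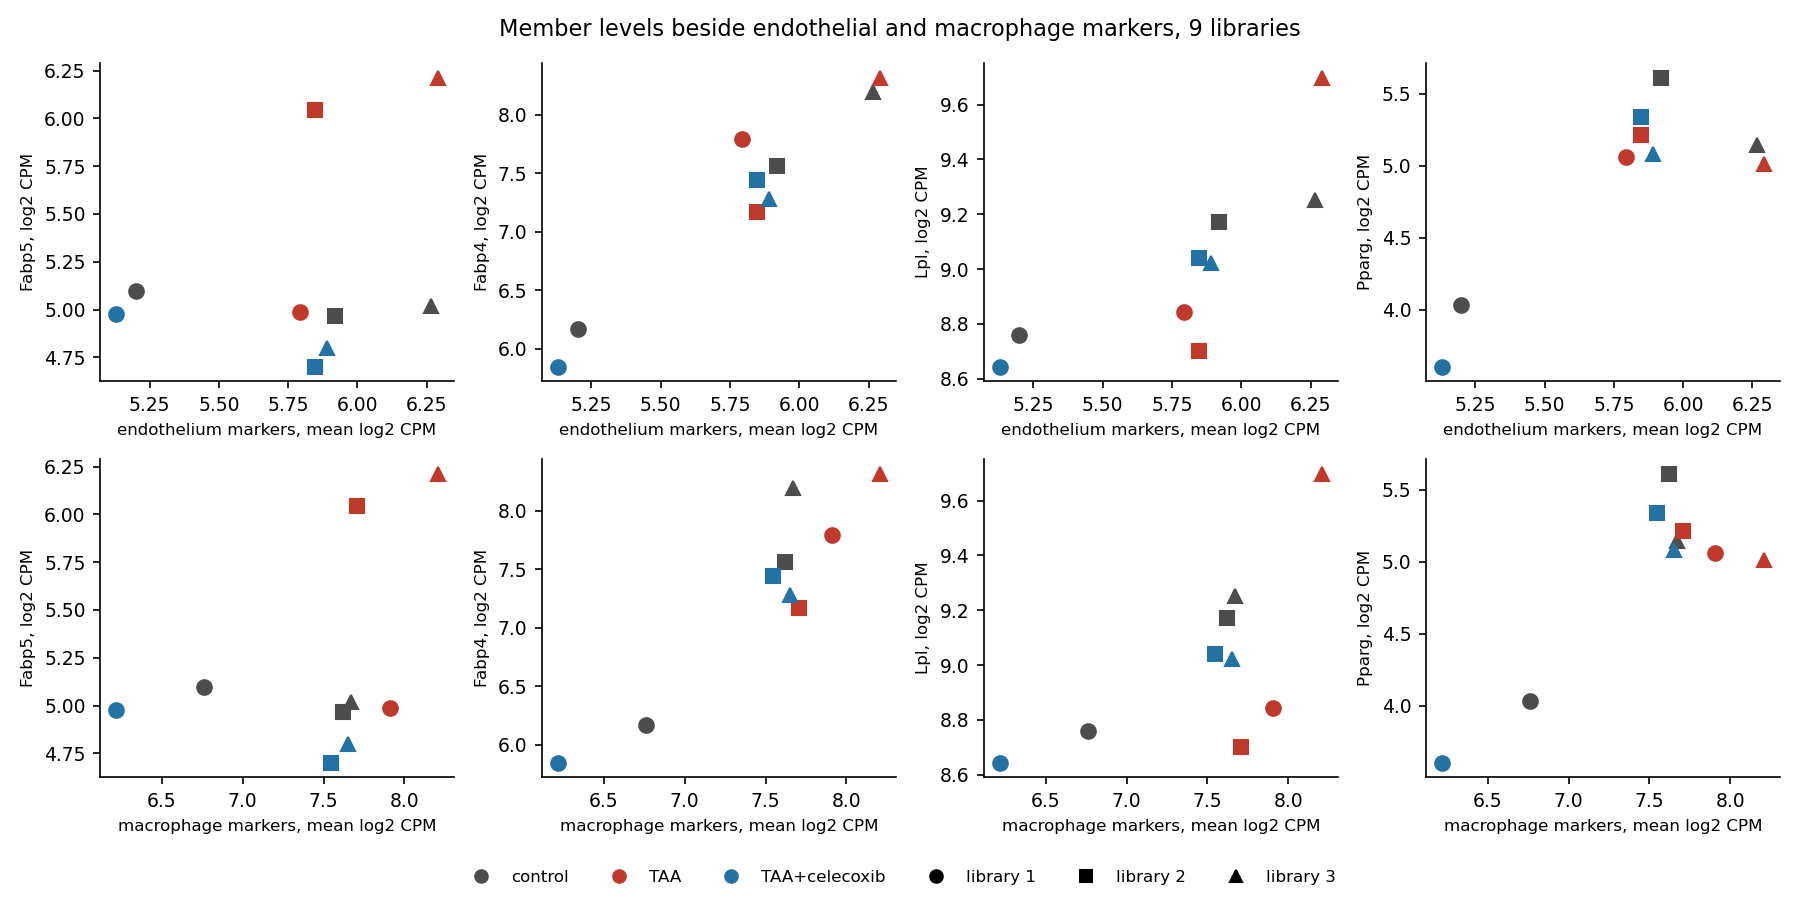
Log2 CPM of Fabp5, Fabp4, Lpl and Pparg against the mean log2 CPM of 9 endothelial markers (top) and 10 macrophage markers (bottom), 1 point per library, colour for group and symbol for library number. Control 1 and TAA+celecoxib 1 lie at the low end for Fabp4 and Pparg, and TAA 2 and TAA 3 lie above the rest for Fabp5.

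Fat cells are a textbook source of Fabp4, Lpl, Pparg and Cd36. Of the defining adipocyte markers, Adipoq was at 0 to 0.261 CPM, Plin1 at 0 to 0.274 CPM and Retn at 0 to 0.731 CPM over the 9 libraries. Adipoq and Plin1 were at 0 in control 1, control 2 and all 3 TAA+celecoxib libraries. The 8 adipocyte markers summed to 225 to 592 CPM in control, 360 to 629 CPM in TAA and 186 to 329 CPM in TAA+celecoxib, and nearly all of it was Cfd, complement factor D, at 183 to 625 CPM. Cidec, a lipid droplet protein of the same list, was at 1.47 to 3.42 CPM. Plin1 was at 0.157 to 0.274 CPM in TAA 2 and TAA 3, the libraries high in Fabp5. It was at 0 to 0.0710 CPM in the other 7, and had at most 4 counts in any library. No other marker of the list set both TAA 2 and TAA 3 above all the rest. Retn and Lep had 0 counts in TAA 2, while TAA 1 held 10 and 2 counts. For Adipoq, control 3 (0.171 CPM) exceeded TAA 2 (0.0685 CPM). Cfd and Plin4 were higher in control 2 than in TAA 2, and Cidec was highest in TAA+celecoxib 1. The part of fat cells in the levels of these genes was not tested.

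Genes whose levels most resembled those of Fabp5 were Nol3, Arhgap28, Pkm, Lrrc32 and Tp53inp2, ranked by Pearson's r of log2 CPM over the 9 libraries. Nol3, an inhibitor of apoptosis, had r = 0.954 (Spearman 0.883), with 8.63 and 9.66 CPM in TAA 2 and TAA 3, 6.04 CPM in TAA 1 and 7.27 CPM in control 1. Arhgap28, a GTPase activating protein, had r = 0.939 (Spearman 0.633) with 9.45 and 8.93 CPM in TAA 2 and TAA 3 and 4.69 CPM in TAA 1. Pkm, a pyruvate kinase of glycolysis, had r = 0.925 (Spearman 0.867) at 525 and 521 CPM in these libraries and 457 CPM in TAA 1. Lrrc32, which holds latent TGF-beta at the surface of regulatory T cells and platelets, had r = 0.883, and Tp53inp2 had r = 0.882. The ranking ran over the 15954 tested genes, leaving out the other members, unnamed entries and symbols starting with LOC, RGD or AABR. Nol3 and Arhgap28 lay below 10 CPM in every library.

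For Fabp4 the most similar genes were Dnm2, a GTPase of endocytosis, Hdac4, a histone deacetylase, and Tcn2, which carries vitamin B12, each with r = 0.979. Tcn2 was at 57.5 CPM in control 1 and 41.0 CPM in TAA+celecoxib 1 and at 464 CPM in TAA 3. For Lpl they were Ctdspl (r = 0.951), the lectin gene Cd209c (0.940) and Adamts4 (0.930), a protease that cleaves aggrecan, of which Cd209c stayed at 0.137 to 1.98 CPM. For Pparg they were Metrnl (0.977), Srpx (0.976) and Dcbld2 (0.974).

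The wider pathway was described with 8 lists holding 127 genes beside the members, of which 126 had an entry and 102 passed the filter. Genes named from these lists were picked for the lowest p in a comparison with TAA, so the differences shown are selected ones. EdgeR called 0 of the 102 in each of the 3 comparisons. At an unadjusted p under 0.05 it found 0 higher and 1 lower in TAA against control, beside 2.85% and 3.15% of all tested genes, and 0 higher and 2 lower in TAA+celecoxib against TAA, beside 2.63% and 2.46%. DESeq2 and limma-voom called 0 of the 102 as well. Fitted values were above 0 for 72 of 102 in TAA against control, beside 50.2% of all tested genes, and for 30 of 102 in TAA+celecoxib against TAA, beside 51.2%. The medians were 0.15 and -0.14, beside 0.0017 and 0.0071 over all genes. Without control 1 and TAA+celecoxib 1, the libraries low in macrophage and endothelial markers, 63 of 104 list genes were above 0 in TAA against control (median 0.079) and 39 of 104 in TAA+celecoxib against TAA (median -0.098). Groups did not overlap for 8 genes higher and 4 lower (7.84% and 3.92%) in TAA against control, beside 6.94% and 7.89% of all tested genes. In TAA+celecoxib against TAA it was 0 higher and 10 lower (9.8%), beside 5.87% and 5.03%. These comparisons share the TAA libraries.

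Scavenger receptors and lipid handling genes of macrophages had the medians farthest from 0 among the lists with more than 1 tested gene. In TAA against control 16 of 17 fitted values were above 0 (median 0.36), and in TAA+celecoxib against TAA 15 of 17 were below 0 (median -0.42), with 0 called each time. Without control 1 and TAA+celecoxib 1, the counts were 13 of 18 above 0 (median 0.18) and 14 of 18 below 0 (median -0.20). These comparisons share the TAA libraries. In TAA+celecoxib against control, 8 of 17 were above 0, beside 50.2% of all tested genes. Gpnmb, a glycoprotein of lipid-laden macrophages, was at 187, 397 and 431 CPM in control 1, 2 and 3. In TAA 1, 2 and 3 the values were 719, 499 and 865 CPM, above all controls, and TAA+celecoxib 1, 2 and 3 had 125, 566 and 360 CPM. Npc2, which moves cholesterol out of lysosomes, had 440, 418 and 461 CPM in the TAA libraries. Its TAA+celecoxib libraries had 270, 319 and 340 CPM, all below TAA (log2 fold change -0.51, SE 0.13, edgeR adjusted p = 0.890). Lgals3, a galectin of macrophages, averaged 147 ± 11.9 CPM under TAA, against 91.7 ± 33.6 CPM with celecoxib added. Olr1, a receptor for oxidized lipoprotein, averaged 7.54 ± 2.83 CPM under TAA, against 2.66 ± 1.29 CPM in control. For Soat1, which esterifies cholesterol, these means were 95.3 ± 52.9 and 47.6 ± 16.9 CPM. Gpnmb, Olr1 and Soat1 were lowest in control 1 and TAA+celecoxib 1, the libraries low in macrophage markers, and the part of macrophage content was not tested.

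**Figure D4:**
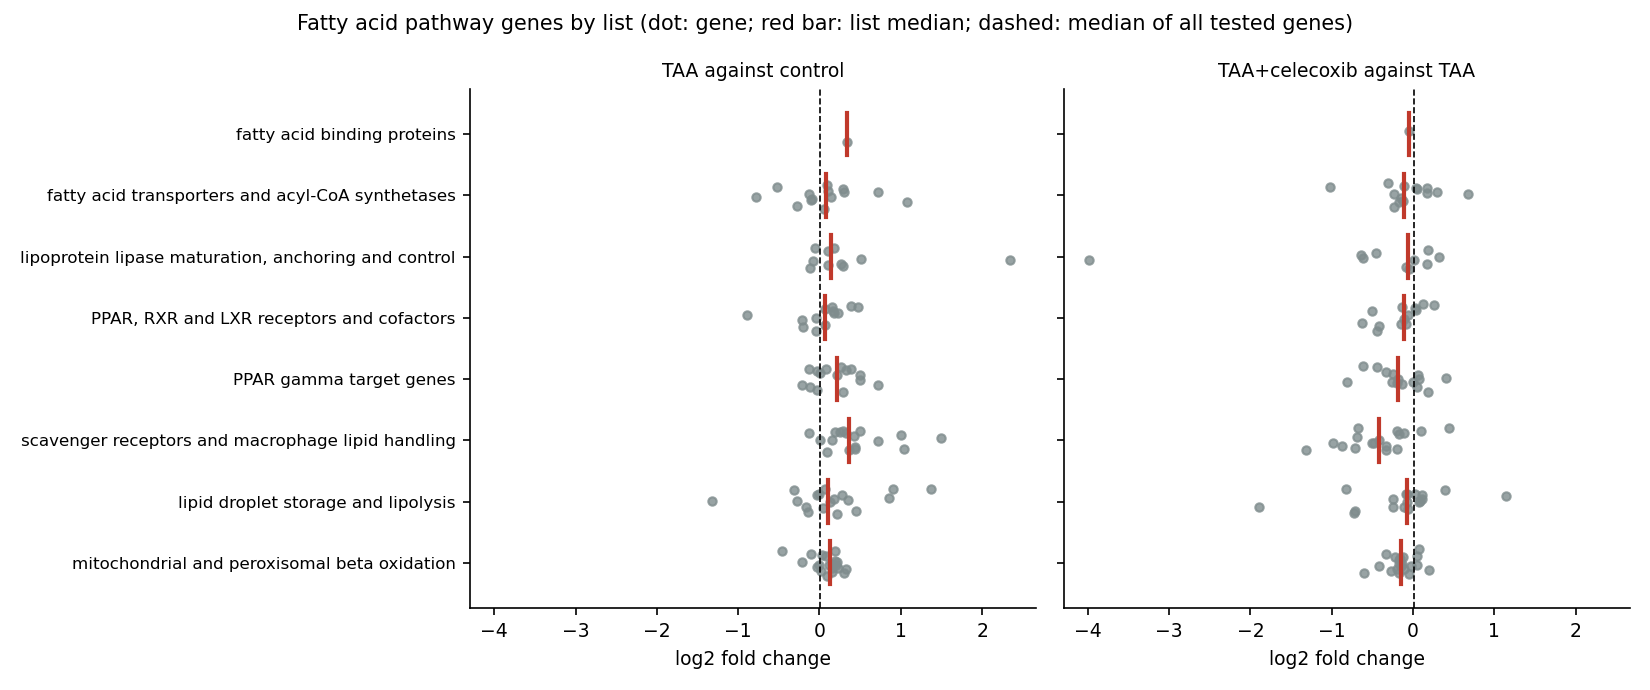
Fitted log2 fold change of each tested gene (dot) in 8 fatty acid pathway lists, with the list median (red bar) and the median of all tested genes (dashed line), for TAA against control and TAA+celecoxib against TAA. Scavenger receptor and macrophage lipid genes have medians of 0.36 and -0.42, and the other lists with more than 1 tested gene lie between 0.07 and 0.21 and between -0.19 and -0.07.

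Fatty acid transporters and the acyl-CoA synthetases that trap fatty acids in the cell had 14 tested genes of 17, with medians of 0.08 in TAA against control and -0.12 in TAA+celecoxib against TAA. Slc27a3, a transporter family member, had 16.1, 20.5 and 25.6 CPM in the controls. TAA 1, 2 and 3 had 10.8, 15.7 and 9.82 CPM, all below the controls (log2 fold change -0.78, SE 0.27, edgeR adjusted p = 0.788). Acsl1, a synthetase, had 34.9, 35.5 and 34.9 CPM in the controls. In TAA 1, 2 and 3 the values were 79.0, 38.0 and 56.8 CPM, all above the controls (0.72, SE 0.37, edgeR adjusted p = 0.788). TAA+celecoxib 1, 2 and 3 had 45.0, 97.6 and 36.9 CPM of Acsl1, a range that held that of TAA. Slc27a4, another transporter, averaged 28.8 ± 4.50 CPM under TAA, against 34.8 ± 3.72 CPM in control. Between TAA and TAA+celecoxib, Acsl5 averaged 146 ± 2.71 against 165 ± 21.99 CPM, Got2 190 ± 20.2 against 169 ± 12.6 CPM, and Mfsd2a 1.01 ± 0.425 against 1.59 ± 0.860 CPM.

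Of 16 genes that mature, anchor or control lipoprotein lipase, 10 were tested, with medians of 0.14 and -0.07. Gpihbp1, the endothelial protein that anchors the lipase in capillaries, had 12.9, 14.8 and 20.4 CPM in the controls. TAA 1, 2 and 3 had 17.1, 26.2 and 14.4 CPM, and TAA+celecoxib 1, 2 and 3 had 15.8, 11.99 and 14.1 CPM. All 3 groups of Gpihbp1 overlapped. Sel1l, which helps the lipase to fold in the endoplasmic reticulum, averaged 268 ± 27.0 CPM under TAA, against 237 ± 15.8 CPM in control. Lmf2, of the same list, averaged 52.1 ± 3.95 CPM under TAA, against 56.6 ± 3.37 CPM in control. Apoc3, an inhibitor of the lipase from hepatocytes, reached 12.6 CPM in TAA 1, 2.53 CPM in control 1 and at most 0.701 CPM elsewhere. TAA 1 and control 1 were also the libraries with hepatocyte markers. Its log2 fold changes of 2.35 and -3.98 (edgeR adjusted p = 0.801 and 0.890) are those of a gene at 0 to 12.6 CPM.

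Nuclear receptors of the PPAR, RXR and LXR families and their cofactors had 13 tested genes of 14, with medians of 0.07 and -0.11. Rxra, the partner that PPAR gamma needs to bind DNA, had 44.1, 79.7 and 89.1 CPM in the controls. In TAA 1, 2 and 3 the values were 99.4, 88.2 and 108 CPM, and TAA+celecoxib 1, 2 and 3 had 39.2, 83.5 and 85.7 CPM. Like Pparg, Rxra was lowest in control 1 and TAA+celecoxib 1. Nr1h3, the LXR of macrophages, averaged 224 ± 37.1 CPM under TAA, against 165 ± 52.3 CPM with celecoxib added. For Ppargc1b, a coactivator, these means were 6.66 ± 1.22 and 4.30 ± 1.36 CPM. Rxrb averaged 75.4 ± 5.39 CPM under TAA, against 87.2 ± 8.34 CPM in control, and Rxrg 1.25 ± 0.550 against 2.31 ± 1.70 CPM.

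Target genes known for PPAR gamma had 15 tested genes of 20, with medians of 0.21 and -0.19. The 5 below the filter were Adipoq, Plin1, Plin4, Aqp7 and Pck1, most of them genes of fat cells, with at most 37 counts in any library. Ucp2, a mitochondrial carrier abundant in immune tissue, averaged 932 ± 115 CPM under TAA, against 744 ± 90.2 CPM in control. Pdk4, a kinase that spares glucose, ranged from 3.06 to 14.0 CPM in the TAA libraries, with TAA 3 the high one. TAA+celecoxib 1, 2 and 3 had 5.51, 3.02 and 4.06 CPM of Pdk4. Scd, a desaturase, averaged 63.7 ± 1.56 CPM under TAA, against 72.4 ± 8.97 CPM with celecoxib added. For Abcg1, a cholesterol exporter, these means were 222 ± 9.35 and 194 ± 33.0 CPM.

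Lipid droplet and lipolysis genes had 18 tested genes of 18, with medians of 0.10 and -0.08. Dgat2, which makes triglyceride, had 18.6, 17.1 and 19.0 CPM in the controls. TAA 1, 2 and 3 had 27.5, 16.8 and 58.0 CPM, and TAA 3 was the highest, as it was for Lpl. Lpin2, a phosphatidate phosphatase, averaged 80.4 ± 20.2 CPM under TAA, against 59.0 ± 8.90 CPM in control. Pnpla3 and Plin5 were near the depth limit, at 0.0710 to 0.677 CPM and 0 to 1.51 CPM.

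Beta oxidation genes had 20 tested genes of 22, with medians of 0.13 and -0.15. In TAA against control 16 of 20 fitted values were above 0, beside 50.2% of all tested genes. In TAA+celecoxib against TAA 16 of 20 were below 0, where 51.2% of all tested genes were above 0. These comparisons share the TAA libraries. In TAA+celecoxib against control 10 of 20 were above 0, beside 50.2%. Groups did not overlap for 2 of the 20 in TAA against control, all higher, beside 6.94% of all tested genes. In TAA+celecoxib against TAA they did not overlap for 6 of the 20, all lower, beside 5.03%. Hadha, a subunit of the mitochondrial trifunctional protein, averaged 186 ± 2.53 CPM under TAA, against 163 ± 7.49 CPM in control (log2 fold change 0.19, SE 0.09, edgeR adjusted p = 0.788). Acadvl, the dehydrogenase of very long chains, averaged 65.9 ± 2.39 CPM under TAA, against 57.5 ± 1.94 CPM with celecoxib added (-0.20, SE 0.10, edgeR adjusted p = 0.890). Decr1 and Etfb, which serve unsaturated chains and electron transfer, averaged 29.8 ± 2.04 and 62.7 ± 5.02 CPM under TAA, against 23.7 ± 0.656 and 47.0 ± 10.9 CPM with celecoxib added. For Acaa1a the TAA and control means were 35.7 ± 7.92 and 28.3 ± 1.75 CPM, and for Etfa 73.3 ± 8.12 and 62.7 ± 2.81 CPM.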

How the data were processed

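For each library the authors deposited unnormalized counts, which are whole numbers, and FPKM values scaled to gene length and a library size. That size was not the plain count total: it came to 0.955 of the total in TAA+celecoxib 2 and 1.05 of it in control 3. The submitters' processing notes name HISAT2 2.0.5, a read aligner, and the genome mRatBN7.2, with no account of their use. Sources used here do not say how strand was treated or which program counted reads, so overlapping genes may share reads. Coordinates are those of the files, whose build is unresolved. EdgeR 4.0.16 (R 4.3.3) fitted the counts of all 9 libraries by group with its quasi-likelihood test, TMM and filterByExpr (minimum count 10, total 15). P-values were 2-sided and adjusted by Benjamini-Hochberg over all tested genes (threshold 0.05). A standard error is the fitted log2 fold change divided by the square root of its F statistic. Correlations used log2 CPM with a prior count of 2. An exact permutation test of 3 against 3 libraries cannot go below p = 0.1 and was not used.

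The genes, the 8 pathway lists and 14 marker lists were chosen with earlier results of these data known. Beside the members, the text names up to 3 genes per list in each comparison with TAA, those of lowest p. It also names the 5 (Fabp5) or 3 genes most like each member. Chi-square per degree of freedom between libraries was 17.5 to 136 over 36 pairs, so no library was a copy of another. The scripts were tested on simulated data. Alternatives were DESeq2 1.42.0, limma 3.58.1 (voom, and on log2 of FPKM + 0.1), RLE factors, no filter, 6 libraries only, a replicate block and leaving out libraries. A gene and a marker list that these choices would name are not reported here.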

Additional observations from a re-analysis of the deposited data

How the results depend on the processing

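Each gene's fold change was computed under 18 alternatives in each of 3 comparisons. Fabp5 kept its direction in all 54. With single libraries left out, its TAA+celecoxib against TAA value ran from -1.32 to -0.78, and it passed the threshold only without TAA 1 (edgeR adjusted p = 0.0326, the lowest of the adjusted p-values of the 18 alternatives, which reach 0.999). TAA 1 was the TAA library lowest in Fabp5. The direction of Fabp4 changed in 4 of 54, of Lpl in 4 and of Pparg in 8. Leaving out single libraries, TAA against control ran from -0.075 to 0.81 for Fabp4, -0.30 to 0.26 for Lpl and -0.30 to 0.41 for Pparg. TAA+celecoxib against TAA ran from -0.42 to 0.14 for Lpl and -0.57 to 0.12 for Pparg, and TAA+celecoxib against control from -0.55 to 0.16 for Pparg. Without control 1 and TAA+celecoxib 1 together, TAA against control was -0.088 for Fabp4, -0.073 for Lpl and -0.31 for Pparg, and TAA+celecoxib against TAA was 0.12 for Pparg. Without control 1 and TAA 1 together, TAA against control was -0.066 for Fabp4 and -0.29 for Pparg. The cause of these shifts was not tested beyond the libraries left out.

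Over all genes, edgeR called 0 in each comparison, with 957, 812 and 803 at an unadjusted p under 0.05. DESeq2 called 53 in TAA against control, 25 in TAA+celecoxib against TAA and 27 in TAA+celecoxib against control, and edgeR on the 6 libraries of the last comparison called 1. Leaving out single libraries gave 0 to 1, 0 to 3 and 0 to 2 calls, and leaving out control 1 and TAA 1 gave 1 and 2 in the first 2 comparisons. The cause was not tested. Pathway list genes had 0 calls throughout. The library numbers of the labels do not say that same-numbered libraries are paired, and the main fit left the number out. Deviations from the group means correlated at -0.213 to 0.475 over 9 same-numbered pairs, 6 of them over 0.1. Over 18 pairs of unlike number they correlated at -0.402 to 0.219. Of 9 libraries, 6 correlated best with a library of their own number. With the number as a replicate block, Fabp5 was 0.78 in TAA against control and -0.97 in TAA+celecoxib against TAA (edgeR adjusted p = 0.534 and 0.606), and 0 genes were called. Depth limits genes near 1 count, 0.0522 to 0.0710 CPM.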

Other observations

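Echs1, the second enzyme of mitochondrial beta oxidation and a gene of the pathway lists, did not pass the filter on low counts and was noticed after its values were seen. It had 295 counts in control 3 and 414 counts in TAA+celecoxib 3, and between 2 and 7 counts in the other 7 libraries. No other listed gene below the filter reached 125 counts in any library, the highest being Fabp1 at 124 in TAA 1.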
